A study of Mus musculus with 2 samples.

Results

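The genes described here are 7 markers of the formative and primed epiblast, namely Fgf5, Fgf15, Otx2, Pou3f1, Foxd3, Zic2 and Pim2. They were chosen by name, as the rows of the deposited table that carry these symbols, and all 7 of 7 were found among 51826 listed genes. The table gives TPM (transcripts-per-million), an abundance that is divided by gene length and scaled to a fixed sum in each library. There were 2 libraries of v6.5 mouse embryonic stem (ES) cells, 1 from cells labelled wild-type and 1 from cells labelled T29I, and the series title names PRSS1 as the mutated gene. Both carry the same source and strain labels (NBA1-19349), and neither label gives the clone, passage, medium or feeder cells. With 1 library per group the comparison has no replicates, so no p-value is given, and "higher" and "lower" describe these 2 libraries only.

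The naive state of ES cells corresponds to the pluripotent epiblast of the blastocyst, and the primed state to the epiblast once the embryo has implanted. The formative state lies between them, when the naive transcription factors are switched off and cells become able to respond to lineage signals. Otx2 and Pou3f1 are transcription factors of this transition, Fgf5 is the classical transcript of the epiblast after implantation, and Zic2, Foxd3, Fgf15 and Pim2 are further genes used to follow it. In a bulk library a higher level in every cell and a larger share of cells that transcribe the gene cannot be told apart.

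Of the 7 markers, 4 were higher in the T29I library by 2-fold or more and 1 was lower by as much, measured on the log2(TPM + 1) scale that all log2 ratios here use. Pim2 and Pou3f1 differed most on that scale, at about the same ratio, followed by Zic2 and Fgf5, whose plain TPM ratios were 4.50 and 4.71. Fgf15 was lower, and Otx2 and Foxd3 differed by less than 2-fold. The same rule took in 9.97% of the 12943 genes averaging 1 TPM or more as higher and 45.7% as lower, since most genes had less TPM in the T29I library.

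The general drop in TPM matters for reading single genes. Each library has the same TPM sum, of which its 20 most abundant genes held 16.9% in wild-type and 27.0% in T29I cells. Scaled without the most abundant genes, the median log2 ratio over the 9375 genes averaging 5 TPM or more was -0.73. As deposited it was -0.90, called the median shift here. A lower TPM is thus a lower share of the library, and transcripts per cell were not measured. Relative to that shift, 5 of the 7 markers were 2-fold or more higher, against 26.0% of all tested genes, and 0 were 2-fold or more lower, against 22.2%. Log2 ratios also followed transcript length and GC content, which together accounted for 44.9% of their variance across 9100 protein-coding genes. In residuals of a fit on both, called adjusted ratios here, 5 markers were higher and 2 were lower, where 17.6% and 15.5% of 12920 genes were. The median over the 7 markers was 1.39 as deposited, 2.28 relative to the shift and 1.46 adjusted, beside medians of -0.84, 0.055 and 0.040 over all tested genes.

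**Figure D1:**
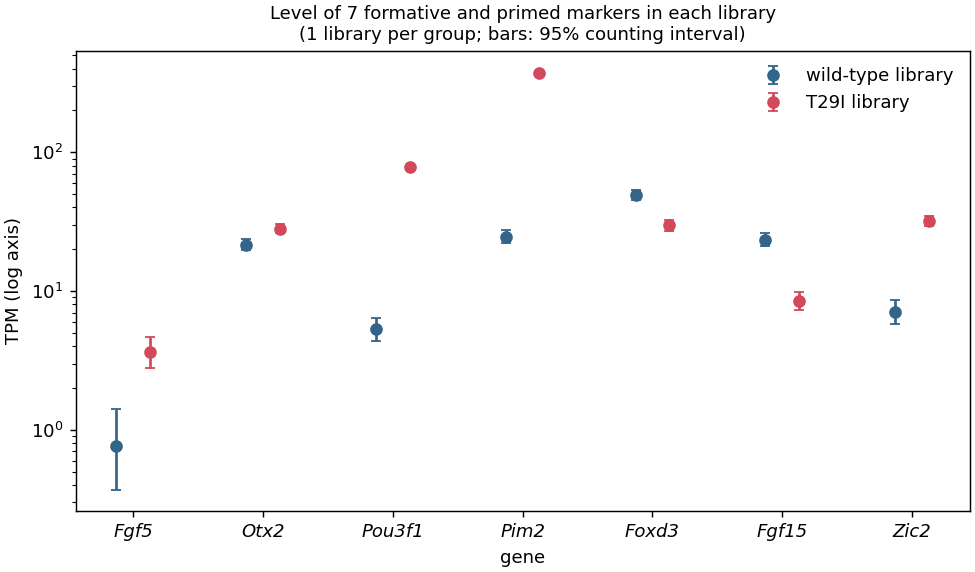
TPM (log axis) of the 7 markers in the wild-type library (blue) and the T29I library (red), 1 library each. Bars are 95% counting intervals, which leave out variation between cultures; the intervals of the 2 libraries do not overlap for any of the 7 genes.

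The secreted ligands went in opposite directions. Fgf5, a fibroblast growth factor of the epiblast after implantation, was the least abundant marker in both libraries. Its level was 0.770 TPM in wild-type cells (95% counting interval 0.369 to 1.42) and 3.63 TPM in T29I cells (2.77 to 4.67). These levels rest on an estimated 10 and 60 reads, so the ratio of 4.71 has a wide counting interval of 2.39 to 10.3. The log2 ratio of Fgf5 was 1.39 as deposited and 2.33 adjusted. Fgf5 was at or above 28.8% of the genes detected in the wild-type library and 52.4% of those detected in the T29I library.

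Fgf15 encodes a further secreted FGF, the mouse counterpart of human FGF19, which acts as a gut hormone in adults. It stood at 23.5 TPM (21.2 to 26.0) in the wild-type cells against 8.48 TPM (7.24 to 9.83) in the mutant, 2.77-fold lower (2.31 to 3.35). The log2 ratio was -1.37 as deposited, -0.47 relative to the median shift and -1.03 adjusted. Fgf15 was thus lower under each of these scalings, and past 2-fold under the first and the last of them.

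Among the transcription factors, Pou3f1 showed the largest difference. Pou3f1 encodes Oct6, a POU-domain protein of the epiblast and of neural and Schwann cells. Its level was 5.31 TPM (4.34 to 6.42) without the mutation and 78.0 TPM (74.6 to 81.5) with it, a ratio of 14.7 (12.1 to 18.0). Of the 12943 tested genes, 39 had a log2 ratio at least as high as the 3.65 of Pou3f1. The adjusted log2 ratio was 3.10, and 106 genes were at least as high on that scale.

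Zic2, a zinc-finger factor that occupies enhancers in epiblast cells and patterns the later forebrain, was the next highest factor. The wild-type value was 7.09 TPM (5.80 to 8.58) and the T29I value 31.9 TPM (29.4 to 34.5). The plain TPM ratio was 4.50 (3.66 to 5.58). On the log2(TPM + 1) scale the ratios were 2.02 as deposited, 2.92 relative to the shift and 1.46 adjusted.

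Otx2 encodes a homeodomain protein that drives the exit from the naive state and later specifies the forebrain. It differed little as deposited, with 21.5 TPM (19.6 to 23.5) in wild-type and 28.2 TPM (26.3 to 30.3) in T29I cells, a ratio of 1.31 (1.17 to 1.47). Whether Otx2 counts as 2-fold higher depends on the scaling, because its log2 ratio was 0.38 as deposited, 1.27 relative to the shift and 1.36 adjusted. The direction was the same in all 3.

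Foxd3 is a forkhead factor needed to maintain the epiblast, and it is transcribed in naive ES cells too. It was the most abundant of the 7 in the wild-type library, at 49.3 TPM (45.4 to 53.4), and stood at 29.7 TPM (27.0 to 32.6) in the T29I library, 1.66-fold lower (1.47 to 1.88). The direction of this difference did not hold across scalings. The log2 ratio was -0.71 as deposited, 0.18 relative to the shift and -2.14 adjusted.

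Pim2, a constitutively active serine/threonine kinase that promotes cell survival and growth, is the only enzyme among the markers. It had the most reads of the 7 over both libraries, an estimated 358 and 6834. Those gave 24.7 TPM (22.2 to 27.4) and 370.1 TPM (361 to 379), a ratio of 15.0 (13.5 to 16.7). As deposited, 28 of the tested genes had a log2 ratio at least as high as the 3.85 of Pim2. Adjustment left the ratio almost where it was, at 3.83. Pim2 made up 18.7% of the summed TPM of the 7 markers in wild-type cells and 67.3% in T29I cells. That sum was 132 and 550.03 TPM, a ratio of 4.16, and without Pim2 it was 107 and 179.9 TPM, a ratio of 1.67.

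**Figure D2:**
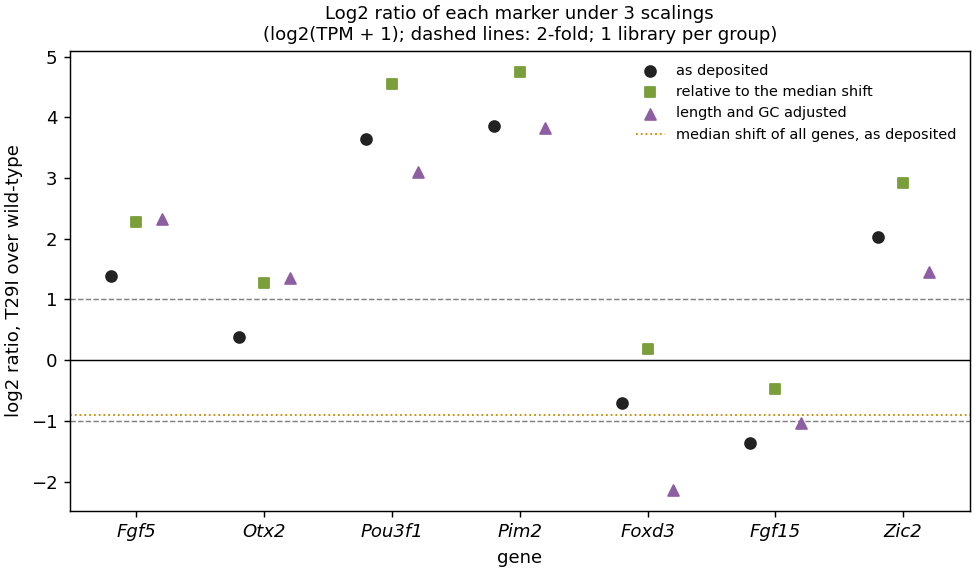
Log2 ratio of T29I over wild-type for each marker as deposited (circles), relative to the median shift (squares) and adjusted for length and GC content (triangles), with 2-fold marked by dashed lines. Pim2, Pou3f1, Zic2 and Fgf5 lie above the upper line under all 3, Otx2 under the last 2, and Foxd3 lies on both sides of 0.

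The order of the levels differed between the libraries. In the wild-type library it ran from Foxd3 through Pim2, Fgf15 and Otx2 to Zic2, Pou3f1 and Fgf5. The counting intervals of Pim2 and Fgf15, of Fgf15 and Otx2, and of Zic2 and Pou3f1 overlapped there. In the T29I library the order was Pim2, Pou3f1, Zic2, Foxd3, Otx2, Fgf15 and Fgf5, and the intervals of Zic2 and Foxd3 and of Foxd3 and Otx2 overlapped. Pou3f1 stood in place 6 in the former and place 2 in the latter, Foxd3 in places 1 and 4, and Fgf5 last in both.

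The markers with GC-rich transcripts are those whose ratio fell on adjustment. The longest annotated transcripts of Foxd3 and Pou3f1, each a single exon, have GC contents of 65.1% and 63.9%, at or above 99.5% and 99.3% of the protein-coding genes in the fit. Zic2 follows with 59.9% and Pim2 with 54.7%, against a median of 50.2% over those genes. Fgf15 has 50.8%, Fgf5 47.0% and Otx2 46.8%. For genes of their length and GC content the fit gave a log2 ratio of 1.42 for Foxd3, 0.56 for Zic2, 0.55 for Pou3f1 and 0.027 for Pim2. It gave -0.34 for Fgf15, -0.94 for Fgf5 and -0.98 for Otx2. Across the fitted genes the median log2 ratio was -1.78 in the fifth with the lowest GC content and 0.34 in the fifth with the highest. Foxd3 was therefore near the middle of all tested genes as deposited, at percentile 53.3, and at percentile 2.81 once adjusted. Its part in this trend, and whether the trend is technical, was not tested.

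**Figure D3:**
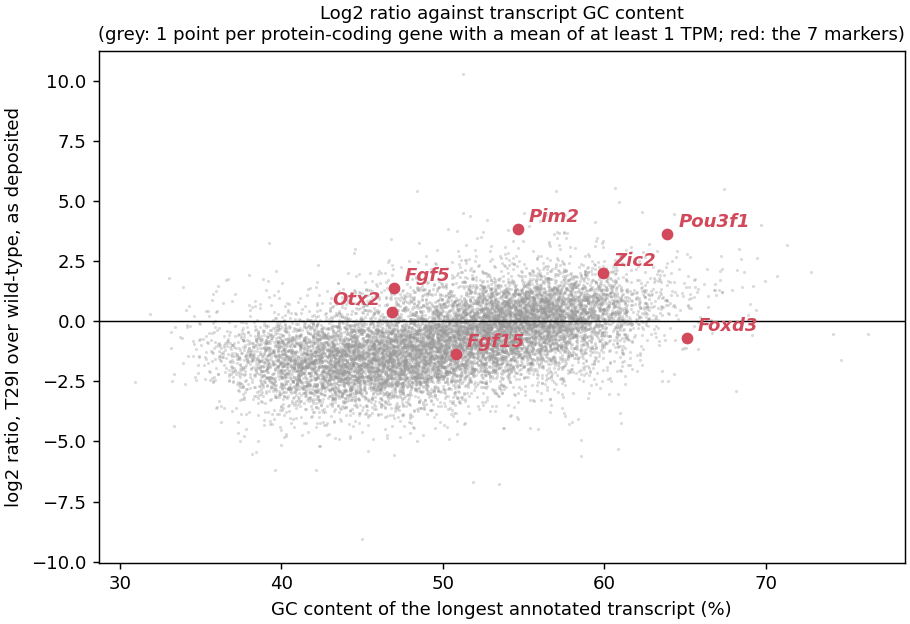
Log2 ratio as deposited (vertical axis) against the GC content of the longest annotated transcript in percent (horizontal axis) for 12121 protein-coding genes (grey), with the 7 markers in red. Foxd3 and Pou3f1 lie at the same GC-rich end, at log2 ratios of -0.71 and 3.65.

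The contrast in base composition shows in the first 60 coding bases of the markers at either end of the GC range, given 5′ to 3′ from GENCODE M21 transcripts with the start codon in capitals. Of these 60 bases, 47 are G or C in Pou3f1, 42 in Foxd3, 34 in Fgf5 and 29 in Otx2.
Pou3f1: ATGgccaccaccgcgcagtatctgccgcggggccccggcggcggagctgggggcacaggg
Foxd3: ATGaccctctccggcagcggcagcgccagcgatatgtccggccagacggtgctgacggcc
Fgf5: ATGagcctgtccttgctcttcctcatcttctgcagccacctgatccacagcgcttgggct
Otx2: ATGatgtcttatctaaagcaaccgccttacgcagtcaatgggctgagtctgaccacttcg
Over the whole coding sequence the GC content is 72.9% for Pou3f1, 72.2% for Foxd3, 66.2% for Zic2, 60.5% for Pim2, 55.8% for Fgf15, 54.4% for Fgf5 and 52.6% for Otx2.

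The RefSeq promoter table (GRCm38.p6) held windows for Pim2, Fgf5, Foxd3 and Otx2. The 250 bases before each start site were searched on both strands for TAATCC (bound by OTX homeodomains), the octamer ATGCAAAT (bound by POU factors), the E-box CACGTG and the TATA box TATAAA. Pim2, which differed most, had 2 octamers, 1 on each strand, starting at positions -202 and -123 from the start site, and 1.60% of all 32851 windows hold at least 1. Foxd3 had 1 E-box at -217, a motif present in 6.02% of windows, and Fgf5 had none of the 4 motifs. The windows of Pim2, with its octamers in capitals, of Foxd3, with its E-box in capitals, and of Fgf5, all on the + strand, are shown because these genes had one start site each.
Pim2, chrX:7878056-7878305: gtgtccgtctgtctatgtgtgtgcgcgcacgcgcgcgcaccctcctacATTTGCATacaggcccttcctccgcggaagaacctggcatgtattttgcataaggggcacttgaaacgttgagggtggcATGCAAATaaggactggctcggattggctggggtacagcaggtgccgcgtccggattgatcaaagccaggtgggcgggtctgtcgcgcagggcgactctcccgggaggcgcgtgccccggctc
Foxd3, chr4:99656049-99656298: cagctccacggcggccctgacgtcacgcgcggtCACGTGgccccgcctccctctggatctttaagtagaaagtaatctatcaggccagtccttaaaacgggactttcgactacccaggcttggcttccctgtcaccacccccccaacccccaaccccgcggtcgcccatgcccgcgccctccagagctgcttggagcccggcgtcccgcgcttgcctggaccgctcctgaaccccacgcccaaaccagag
Fgf5, chr5:98253934-98254183: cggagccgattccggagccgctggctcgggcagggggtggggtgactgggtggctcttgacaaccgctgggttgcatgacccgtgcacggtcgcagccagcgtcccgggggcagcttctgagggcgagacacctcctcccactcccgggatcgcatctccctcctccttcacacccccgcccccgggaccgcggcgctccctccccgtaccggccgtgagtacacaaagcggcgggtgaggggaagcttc
Otx2 has 4 listed start sites, of which 1 window holds a TATA box at -192 and another a TAATCC match at -211. These matches describe the letters of the windows only, and TAATCC and TATAAA occur in 6.25% and 12.4% of all windows.

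In GENCODE M21 (GRCm38) the markers lie on 5 chromosomes, all in protein-coding genes. Fgf5 (ENSMUSG00000029337) is at chr5:98254184-98277030 on the + strand and Fgf15 (ENSMUSG00000031073) at chr7:144896531-144900953 (+). Otx2 (ENSMUSG00000021848) spans chr14:48657677-48673819 (-) and Zic2 (ENSMUSG00000061524) chr14:122475435-122479852 (+). Pou3f1 (ENSMUSG00000090125) is at chr4:124656807-124660655 (+), Foxd3 (ENSMUSG00000067261) at chr4:99656299-99658622 (+) and Pim2 (ENSMUSG00000031155) at chrX:7878262-7883432 (+). Antisense or overlapping transcripts of Otx2, Pou3f1, Foxd3 and Fgf15 were listed at 0.405 TPM or less in both libraries, and the Otx2 antisense transcript Otx2os1 at 0 and 0.127 TPM.

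The nearest protein-coding neighbours of Pim2, Pou3f1 and Zic2 differed less between the libraries, as deposited, than those markers did, while on the adjusted scale Zic5 was at 2.07 and Zic2 at 1.46. Pim2 lies 0.596 kb from Slc35a2, a sugar-nucleotide transporter gene at 9.06 and 9.55 TPM, and 1.64 kb from Otud5, a deubiquitinase gene at 48.2 and 37.1 TPM. The log2 ratios of these neighbours were 0.069 and -0.37. Utp11, 17.5 kb beyond Pou3f1, was at 35.4 and 15.5 TPM, and 3100002H09Rik on the other side was listed at 0 in both. Fgf15 lies 31.3 kb from Fgf4 at 166 and 71.2 TPM and 14.1 kb from Oraov1 at 7.24 and 1.07 TPM. Both of those were 2-fold or more lower as deposited, as were Fgf15 and 45.7% of all tested genes. Their log2 ratios were -0.32 and -1.10 relative to the shift, and -0.45 and -1.03 adjusted. Zic2 lies 9.76 kb from its paralog Zic5, at 10.01 and 16.9 TPM, and next to Gm10837, listed at 0 in both. Of the genes next to Otx2, Tmem260 was at 0.802 and 0.352 TPM and Exoc5 at 13.3 and 3.19 TPM. Alg6 beyond Foxd3 was at 8.50 and 1.75 TPM and Gm12689 before it at 0 in both, while Prdm8 and 1700007G11Rik around Fgf5 were below 0.5 TPM in both libraries.

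The balance within the PIM family differed between the libraries. Such a comparison inside each library does not depend on a scaling factor common to all genes, but the length and GC adjustment differs by gene. Pim2 held 7.40% of the summed TPM of the 3 PIM kinases in wild-type cells and 63.3% in T29I cells. Pim1 was at 124 and 89.2 TPM and Pim3 at 185 and 125.8 TPM, both lower as deposited and above 0 relative to the shift, at 0.42 and 0.34, and adjusted they were at -0.40 and -1.41. Beside Zic2, Zic5 was higher in T29I cells by less than 2-fold as deposited, with a log2 ratio of 0.70, and by 2.07 once adjusted. Zic1 was at 0.0677 and 0 TPM and Zic4 was listed at 0 in both.

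Fgf5 held 0.307% of the summed TPM of 22 FGF genes in wild-type cells and 3.23% in T29I cells, and Fgf15 9.38% and 7.53%. Of the other 20 FGF genes, 6 averaged 1 TPM or more, and of these 1 was higher and 3 were lower by 2-fold or more as deposited, beside 9.97% and 45.7% of all tested genes. Relative to the shift 1 was higher and 1 lower, and adjusted 0 were higher and 2 lower. Fgf8, a ligand of the primitive streak, was higher at 0.713 and 5.05 TPM, although its adjusted log2 ratio was 0.16. Fgf4, the autocrine ligand of ES cells, Fgf17 at 41.2 and 16.1 TPM, and Fgf18 at 7.79 and 0.893 TPM were lower. Fgf3 at 2.24 and 2.34 TPM and Fgf13 at 1.97 and 1.73 TPM differed little. Fgf5 was thus at a level between those of Fgf3 and Fgf8 in the T29I library.

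The remaining families had a single member at a level over 1 TPM. Otx2 accounted for 99.7% and 99.8% of the OTX total, with Otx1 at 0.0711 and 0.0558 TPM and Crx listed at 0 in both. Pou3f1 accounted for 93.0% and 99.9% of the POU3 total, while Pou3f2, Pou3f3 and Pou3f4 were below 0.3 TPM in each library. Foxd3 accounted for 99.4% and 97.9% of the FOXD total, where Foxd1 was at 0.313 and 0.184 TPM, Foxd2 at 0 and 0.0584 TPM and Foxd4 at 0 and 0.387 TPM.

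**Figure D4:**
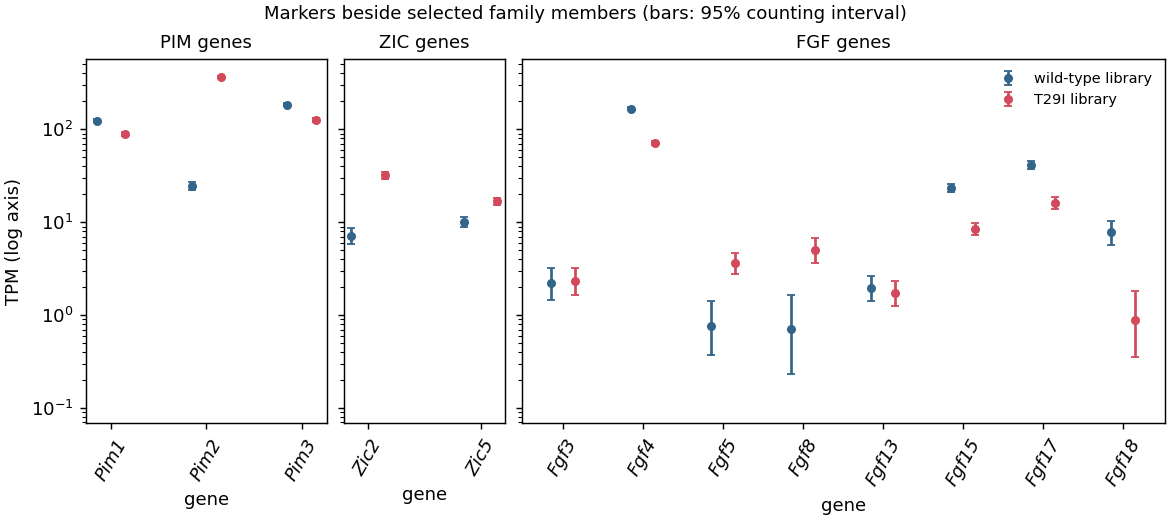
TPM (log axis) of selected PIM, ZIC and FGF genes, each averaging 1 TPM or more, in the wild-type (blue) and T29I (red) libraries, with 95% counting intervals as bars. Pim2 is the lowest PIM gene in the wild-type library and the highest in the T29I library.

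A list of 27 other genes tied to the formative and primed states gives the setting of the 7 markers. As deposited, 5 of the 27 were higher and 6 lower by the 2-fold rule, where 9.97% and 45.7% of all tested genes were, and their median was -0.20. Relative to the shift 11 were higher and 3 lower (median 0.70), where 26.0% and 22.2% of all tested genes were. Adjusted, 10 were higher and 4 lower (median 0.48), against 17.6% and 15.5%. The highest were Krt18, a simple-epithelial keratin also on the trophoblast list, at 15.4 and 353 TPM, Car14, a carbonic anhydrase, at 0.455 and 5.36 TPM, and Wnt8a, a Wnt ligand, at 0.883 and 3.81 TPM. The lowest were Spry4, a feedback inhibitor of FGF signalling, at 109.6 and 10.7 TPM, Grhl2, an epithelial factor of the formative transition, at 30.9 and 2.72 TPM, and Lin28b, an RNA-binding protein, at 12.5 and 0.785 TPM. Mkrn1, Zic5, Sall2, Dnmt3b, Lef1, Dnmt3a and Sox4 were not 2-fold higher as deposited and were so once adjusted, as was Otx2. Utf1, a chromatin-associated factor of pluripotent cells, and Sox3, an early neural and epiblast factor, went the other way, from 1.34 to -0.40 and from 1.05 to -0.74. Once adjusted, Tcf15 was the lowest of the list, going from -1.15 to -3.46, and Etv4 became 2-fold lower, from -0.76 to -1.17. Utf1, Sox3 and Tcf15 have GC contents of 63.5%, 66.4% and 65.8%, at the sparse GC-rich end of the fit, so their adjusted ratios are uncertain. Lin28b, Myc and Cdh2 were no longer 2-fold lower, at -0.84, -0.84 and 0.35.

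By closeness of both levels over the 2 libraries, Wnt8a was the list member most like Fgf5, at a distance of 0.10 on the log2(TPM + 1) scale. Dnmt3a, a de novo DNA methyltransferase at 25.7 and 22.6 TPM, was closest to Otx2 (0.39) and Krt18 to Pim2 (0.65). Enpp3 at 27.4 and 13.8 TPM was closest to Fgf15 (0.67) and Dusp6, an ERK phosphatase at 62.1 and 47.8 TPM, to Foxd3 (0.74). Zic5 was closest to both Zic2 (0.98) and Pou3f1 (2.29), so no gene of the list came near Pou3f1.

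**Figure D5:**
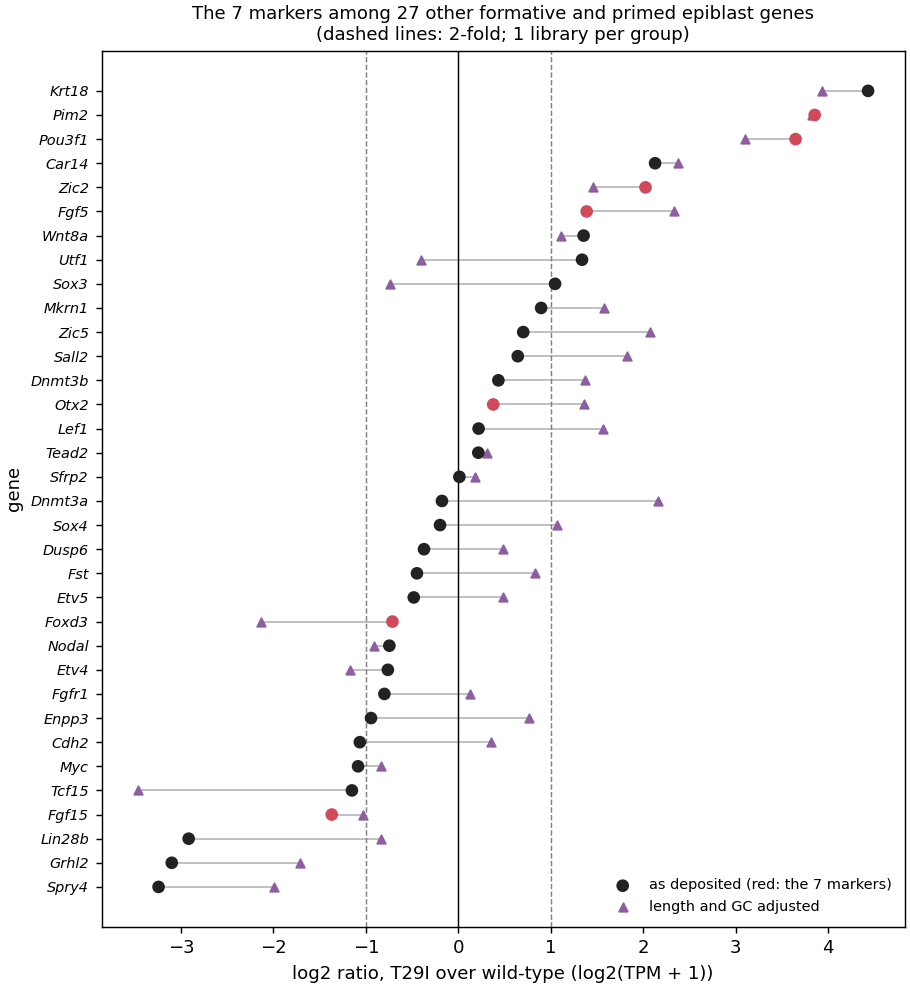
Log2 ratio of T29I over wild-type for 27 other formative and primed genes and the 7 markers (red), as deposited (circles) and adjusted for length and GC content (triangles). Pim2 and Pou3f1 rank just below Krt18 at the top, and Fgf15 lies among the lower genes.

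The libraries also differed in the markers of neighbouring states. The 20 genes of the naive list summed to 11177 TPM in wild-type and 5732 TPM in T29I cells, of which Dppa5a alone gave 5089 and 2632 TPM. The lowest log2 ratios as deposited were those of Tfcp2l1 (194 and 3.11 TPM), Zfp42 (544 and 23.3) and Klf5 (229 and 11.4). The highest were those of Dppa3 (72.6 and 153 TPM), Pecam1 (24.3 and 36.8) and Klf2 (303 and 348). By the 2-fold rule 13 were lower and 1 higher as deposited, beside 45.7% and 9.97% of all tested genes. Relative to the shift 10 were lower and 3 higher, against 22.2% and 26.0%, and adjusted 12 and 2, against 15.5% and 17.6%. Pou5f1, Sox2 and Nanog, which define ES cells, were at 1722 and 1454, at 563 and 355, and at 765 and 140.3 TPM. Pou3f1, Otx2 and Zic2 are neural genes too, and the 9 neuroectoderm markers summed to 18.7 and 33.5 TPM, with Hesx1, itself an epiblast gene, at 6.25 and 16.6 TPM. Of the 5 of them that averaged 1 TPM or more, 3 were higher and 0 lower as deposited, beside 9.97% and 45.7% of all tested genes. Relative to the shift 3 were higher and 0 lower, against 26.0% and 22.2%, and adjusted 4 and 0, against 17.6% and 15.5%. Those higher as deposited were Hesx1, Neurog1 and Rax. Neurog1, a proneural factor, was at 0.929 and 6.20 TPM and Rax, an eye-field factor, at 0.693 and 2.90 TPM. The remaining genes averaging 1 TPM or more, Nes and Sox21, had log2 ratios of 0.071 and -0.41 as deposited and 1.29 and -0.22 adjusted. Below that level Sox1 was at 1.63 and 0.0313 TPM, Pax6 at 0.708 and 0.181 TPM and Six3 at 0.0354 and 0 TPM. The 11 primitive streak and mesoderm genes summed to 13.7 and 10.98 TPM, with Eomes at 6.21 and 2.19 TPM and T (brachyury) at 0.915 and 0.392 TPM. Of the 2 that averaged 1 TPM or more, 1 was higher as deposited, namely Fgf8 at 0.713 and 5.05 TPM. The other, Eomes, was lower, beside 9.97% and 45.7% of all tested genes. Relative to the shift 1 was higher and 0 lower, against 26.0% and 22.2%, and adjusted 0 and 0, against 17.6% and 15.5%.

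The 10 trophoblast genes summed to 121 and 928 TPM, and 6 of the 7 that averaged 1 TPM or more were higher by the 2-fold rule under all 3 scalings, where 9.97%, 26.0% and 17.6% of all tested genes were. Hand1, which drives trophoblast giant cell formation, was at 0.868 and 79.5 TPM, the keratin gene Krt8 at 28.6 and 389 TPM and Ascl2, a trophoblast factor, at 2.02 and 32.0 TPM. Tfap2c, the remaining gene of the 7, was at 73.4 and 53.1 TPM, a log2 ratio of -0.46 as deposited, while Cdx2 and Elf5 were below 0.5 TPM in both. The 8 primitive endoderm genes summed to 52.6 and 9.64 TPM, with the laminin gene Lama1 at 33.8 and 0.588 TPM and Gata4, Gata6 and Sox17 below 1 TPM in both. Among 12 fibroblast genes, summing to 242 and 49.1 TPM of which Fn1 gave 233 and 26.2 TPM, Prrx1 and Lum were listed at 0 in both, and Col1a1 and Col1a2 were at 0.939 and 1.38 and at 0.238 and 0.312 TPM. Of the 4 that averaged 1 TPM or more, 1 was higher and 1 lower as deposited, beside 9.97% and 45.7% of all tested genes. Relative to the shift 3 were higher and 1 lower, against 26.0% and 22.2%, and adjusted 2 and 1, against 17.6% and 15.5%. Thy1, a surface protein of fibroblasts and other cells, was at 4.57 and 17.6 TPM and Twist1, a mesenchymal factor, at 1.06 and 2.42 TPM. The part of all these lists in the levels of the 7 markers was not tested. Prss1 was listed at 0 in both libraries and gives no check of the genotype labels.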

How the data were processed

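RNA was extracted with Isogen and sequenced from TruSeq Stranded Total RNA libraries with Ribo-Zero, per the labels' protocols. The authors deposited TPM values per gene, and each column sums to 1000000. No source used here gives the aligner, counting tool, strand setting, build or annotation. Columns were matched to samples by the sample descriptions, and groups came from the genotype labels.

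The main value compared log2(TPM + 1) of T29I with that of wild-type (a pseudocount of 1), and a difference of 2-fold was the size rule, set beside all genes averaging 1 TPM or more. The adjusted ratio is what remains after a quadratic fit, interaction included, on GC content and log2 length of the longest transcript (GENCODE M21, 51633 IDs matched). That fit used protein-coding genes averaging 5 TPM or more. It removes true differences that follow either property, and for low genes such as Fgf5 it can remove too much. It can do so too at the GC-rich end, where few genes lie, as for Foxd3. TPM times merged exon length gave whole reads within 0.05 for 81.0% and 79.9% of values, which put depth at about 16910002 and 15281662 reads. For Otx2 and Fgf15 the result was not whole, so their reads are approximate. Counting intervals are exact 95% Poisson intervals, or exact binomial ones for ratios, and cover counting error only. The fit and the read estimate were tested on simulated data. The simulated trend was linear in GC content and log2 length, so it could not show a misfit of the real trend at the GC-rich end. Python 3.11.15, numpy 2.4.6, pandas 2.3.3 and scipy 1.17.1 were used.

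Named genes were the 7 markers, their paralogs, neighbours and closest list genes, and, from each list, all genes averaging 1 TPM or more or the 3 highest and 3 lowest. Not every such gene is printed for lists other than the formative one, and further genes were named after their values were seen. A gene of the fixed lists is not reported here. The markers and lists were chosen with earlier results of these data known. No paired analysis was possible because each group has 1 library.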

Additional observations from a re-analysis of the deposited data

How the results depend on the processing

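The number of markers higher in T29I by 2-fold or more was 4 as deposited and stayed between 3 and 5 under the 11 alternatives run. The number lower by as much was 1 as deposited (Fgf15). It was 0 with the median shift subtracted, 0 with upper-quartile scaling and 0 at a 4-fold rule, and it was 2 after the length and GC adjustment and 2 at a 1.5-fold rule (Fgf15 and Foxd3 in both). Merged exon length in place of the longest transcript, chosen after seeing the data, gave 1, which was Foxd3 at -2.30, with Fgf15 at -0.81. As deposited, shift subtracted and adjusted, 9.97%, 26.0% and 17.6% of all tested genes were 2-fold or more higher. In the same order, 45.7%, 22.2% and 15.5% were lower. For the other settings no share of all genes was computed, so their counts describe the markers only. Foxd3 changed direction, from -0.71 to 0.18 with the shift subtracted and to 0.023 with upper-quartile scaling, because each raises all T29I values alike. The other 6 markers kept their direction in all 8 settings of single ratios. Their log2 ratios ranged from 3.66 to 4.75 for Pim2, 2.78 to 4.54 for Pou3f1, 1.43 to 2.92 for Zic2, 0.58 to 2.33 for Fgf5, 0.33 to 1.54 for Otx2 and -1.46 to -0.47 for Fgf15. The lowest value for Fgf5 came with a pseudocount of 5, which is above its TPM in both libraries. Depth limits Fgf5 most, and the absence of replicates limits all 7.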

Other observations

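Fgfr1, the main FGF receptor of ES cells, was at 26.6 and 14.8 TPM, 0.095 above the median shift on the log2 scale. Fgfr2 was at 6.84 and 2.61 TPM, Fgfr3 at 1.08 and 0.360 TPM and Fgfrl1, a receptor without a kinase domain, at 4.57 and 6.96 TPM. Fgfr4, which binds Fgf15 together with the co-receptor Klb, stood at 1.31 and 1.45 TPM, while Klb was at 0.272 and 0.171 TPM. Etv5 and Etv4, transcription factors induced by FGF signalling, had levels of 258.5 and 184.8 TPM and of 101 and 59.2 TPM, both above the median shift as Dusp6 was, whereas Spry4 was far below it at -2.35. Adjusted, Etv5 and Dusp6 were at 0.48 and 0.49, but Etv4 was at -1.17 and Spry4 at -1.99.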
